A study of Mus musculus with 3 samples.

Results

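The genes described here are 9 genes of the calcineurin and NFAT pathway, measured by RNA sequencing in mouse T helper 1 (Th1) cells. They are the calcineurin catalytic subunits Ppp3ca, Ppp3cb and Ppp3cc, the regulatory subunit Ppp3r1, the calcineurin inhibitor Rcan1, and the transcription factors Nfatc1, Nfatc2, Nfatc3 and Nfat5. They were named as members of this pathway and matched by symbol to the gene identifiers, and all 9 were found among 50600 genes. The samples were 3 libraries of 1 group, primary cells of strain C57BL/6NJ cultured as Th1 cells, numbered as biological replicates 1, 2 and 3. The file headers place them at 48 h of a time course. Age is unknown and sex was not collected, per the labels, and no agent or altered allele is named. The labels call the assay total RNA-seq, although the library protocol that they link is named for poly(A)+ RNA. A single donor identifier is given for the whole set, and separate animals or cultures are not stated. The p-values therefore measure only the spread between these libraries, part of which may be technical. Counts of Xist, given below, differed between them. With a single group, the comparisons were between genes within a library and between the 3 libraries.

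Calcineurin is a phosphatase that calcium and calmodulin switch on. It holds a catalytic A subunit, encoded by one of 3 paralogous genes, and a calcium-binding B subunit. In T cells, receptor signalling opens store-operated calcium channels. Calcineurin then removes phosphates from NFAT proteins, which enter the nucleus and bind the promoters of cytokine genes, until kinases return them to the cytosol. Ciclosporin and tacrolimus block this step, which makes it the target of widely used immunosuppressants. Nfat5 shares the DNA-binding fold but lacks the calcineurin-binding region and is known for its response to osmotic stress.

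The totals were 4742025, 50627 and 3543816 counts in replicates 1, 2 and 3, so 1 count was worth 0.211, 19.8 and 0.282 CPM (counts scaled to the library total). The 9 genes together held 2632, 32 and 1144 of these counts, and each of their values from replicate 2 rests on 11 counts or fewer. Levels between genes are given as TPM, counts per gene length scaled to the same sum in each library, and 95% intervals and the limit of 3 counts for a gene at 0 cover counting error only. All 7 markers of T cells and all 5 of CD4 and Th1 cells reached 1 TPM in every library. The summed level of the T cell markers was 866, 831 and 453 TPM. Of this, 162, 194 and 172 TPM came from 1 marker with 56.4% of its exonic length under exons of the other strand. Cd8a, Ms4a1, Lyz2, Itgam, Adgre1 and the 3 natural killer markers had no count in any library, but 68.7% of the exonic length of Itgam is shared with another gene of its strand, where fragments are left out. Cd8b1 had 21, 1 and 13 counts, Cd79a 10, 0 and 22, Cd79b 1, 0 and 2, and Cd68 12, 0 and 5. Ighm had 404, 1 and 172 counts and Csf1r stood at 105, 84.5 and 167 TPM, with 17.8% of the exonic length of Csf1r under exons of the other strand. Xist, with 691, 18 and 3 counts, separated replicate 3 from the other libraries, while Ddx3y, on the Y chromosome, had 187, 1 and 82. The part of these differences, and of other cells, in the levels below was not tested. In bulk RNA, fewer cells of a type and less RNA per cell cannot be told apart.

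Of the 9 genes, 7 reached 1 TPM in every library, against 29.4% of all protein-coding genes, and 8 did so in both replicates 1 and 3, against 44.3%. In replicate 2, 1 count was worth from 2.25 TPM for Nfat5 to 21.2 TPM for Ppp3cc, so 1 count sufficed there. The median over the 9 genes was 14.9, 19.5 and 7.40 TPM in replicates 1, 2 and 3. Over all protein-coding genes the median was 0.649 TPM in replicate 1 and 0.450 TPM in replicate 3. Over those with a count in the library it was 9.84, 26.5 and 5.31 TPM. In replicate 2 the median of the 9 genes lay below that value, with Ppp3ca and Rcan1 at 0 counts. Ppp3r1 and Ppp3cc lay above it there, at 64.0 and 42.4 TPM. In both deep libraries the order from high to low began with Ppp3r1, Nfatc1, Ppp3cc and Nfat5 and ended with Nfatc2, Rcan1 and Ppp3ca. Nfatc3 and Ppp3cb lay between them.

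**Figure D1:**
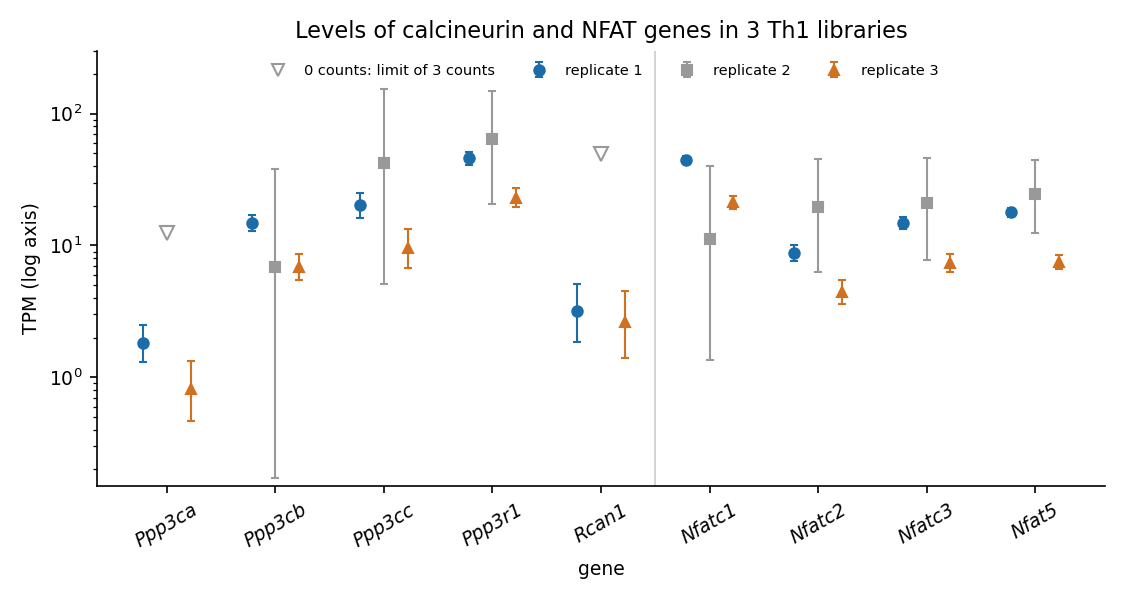
Level of each gene in TPM (log axis) in replicates 1, 2 and 3, with exact 95% counting intervals; open triangles mark 0 counts at the limit that 3 counts set. Replicate 3 lies below replicate 1 for all 9 genes, and the intervals of replicate 2 are wide, from 1.35 to 40.1 TPM for Nfatc1.

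Among the catalytic subunits, Ppp3cc and Ppp3cb carried nearly all of the signal and Ppp3ca very little. Ppp3ca (chromosome 3, 136670124 to 136937727, plus strand, mm10), which encodes the alpha isoform, had 39, 0 and 16 counts, or 1.82, 0 and 0.813 TPM. The limit of 3 counts in replicate 2 was 12.4 TPM, so its 0 there says little. Ppp3cb (chromosome 14, 20499364 to 20546573, minus strand), the beta isoform, whose loss impairs T cell development in mice, had 192, 1 and 82 counts, or 14.9, 6.86 and 6.91 TPM. Ppp3cc (chromosome 14, 70217898 to 70289449, minus strand), the gamma isoform known for its expression in testis, had 85, 2 and 37 counts, or 20.4, 42.4 and 9.64 TPM.

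Both were above Ppp3ca wherever the ratio could be formed. Ppp3cb exceeded Ppp3ca 8.17-fold in replicate 1 and 8.50-fold in replicate 3, with log2 ratios of 3.03 (95% interval 2.53 to 3.57) and 3.09 (2.30 to 3.96). Ppp3cc exceeded Ppp3ca 11.2-fold in replicate 1 and 11.8-fold in replicate 3, with log2 ratios of 3.48 (2.92 to 4.07) and 3.57 (2.69 to 4.51). The size of these ratios depended on the length assumed. All exons of Ppp3ca combined span 9981 bp, whereas its longest coding transcript has 4758 bp. The same lengths are 6018 and 3831 bp for Ppp3cb, and 1948 and 1970 bp for Ppp3cc, in the deposited tables and in a later annotation release. With the length of the longest coding transcript, the mean log2 ratio was 2.44 instead of 3.52 for Ppp3cc over Ppp3ca and 2.64 instead of 3.06 for Ppp3cb over Ppp3ca.

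Ppp3cb and Ppp3cc were closer to each other. For Ppp3cb over Ppp3cc, replicate 1 gave a log2 ratio of -0.45 (-0.83 to -0.07), replicate 2 one of -2.63 (-8.51 to 1.64) and replicate 3 one of -0.48 (-1.06 to 0.12). Ppp3cb was therefore the lower gene in 3 of 3 libraries, beyond counting error in replicate 1 only. The mean was -1.19 ± 1.25 (SD, n = 3; exact two-sided sign-flip p = 0.25, the smallest that 3 libraries allow), and -0.47 without replicate 2. In raw counts, with no length scaling, Ppp3cb was above Ppp3cc in replicates 1 and 3. As shares of the summed catalytic level, Ppp3cc made up 54.9% in replicate 1 and 55.5% in replicate 3, Ppp3cb 40.2% and 39.8%, and Ppp3ca 4.92% and 4.68%.

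Ppp3r1 (chromosome 11, 17159263 to 17200375, plus strand) encodes the B subunit, which the A subunits need for stable activity. It had 316, 5 and 147 counts, or 45.7, 64.0 and 23.1 TPM, the highest level of the 9 genes in each library. Between 88.9% and 92.7% of protein-coding genes lay below it. In TPM it slightly exceeded the 3 catalytic genes summed, 1.23-fold in replicate 1, 1.30-fold in replicate 2 and 1.33-fold in replicate 3. In raw counts, Ppp3r1 and the summed catalytic genes held 316 each in replicate 1, and 147 against 135 in replicate 3. The excess in replicate 1 therefore follows from the length scaling. No counting interval was computed for this ratio. The mean log2 ratio was 0.36 ± 0.06 (SD, n = 3), for which the exact sign-flip test gave p = 0.25, its minimum, with replicate 2 resting on 5 counts against 3. Of its exonic length, 462 bp (14.3%) are shared with Wdr92 on the same strand. The counting as recorded in the headers leaves out fragments that fall on exons of both genes, so this level may be an underestimate. Ppp3r2, the other B subunit gene, known from testis, had no count in any library.

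Rcan1 (chromosome 16, 92391953 to 92466146, minus strand) encodes an inhibitor that binds calcineurin. It was scarce, with 17, 0 and 13 counts, or 3.17, 0 and 2.63 TPM, and the limit of 3 counts in replicate 2 was 49.4 TPM. Relative to the summed catalytic subunits the log2 ratio was -3.55 in replicate 1 and -2.72 in replicate 3, with a mean of -3.14 ± 0.59 (SD, n = 2; the smallest exact sign-flip p with 2 libraries is 0.50). Of its relatives, Rcan2 had no count, and Rcan3 had 63, 4 and 25 counts, or 5.76, 32.3 and 2.48 TPM. In replicate 3, Rcan1 and Rcan3 thus stood at 2.63 and 2.48 TPM.

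Rcan1 is known as a gene that NFAT itself induces, through an internal promoter that gives a shorter isoform. Both of its RefSeq promoter windows, of 250 bases before and 50 after a start, are shown here because the counts are summed over the gene and do not separate the transcripts that begin there. The build is GRCm38.p6, both windows are on the minus strand and read 5′ to 3′, and capitals mark GGAAA, the NFAT core motif, or its complement TTTCC.

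Rcan1 internal start, chr16:92400029-92400328: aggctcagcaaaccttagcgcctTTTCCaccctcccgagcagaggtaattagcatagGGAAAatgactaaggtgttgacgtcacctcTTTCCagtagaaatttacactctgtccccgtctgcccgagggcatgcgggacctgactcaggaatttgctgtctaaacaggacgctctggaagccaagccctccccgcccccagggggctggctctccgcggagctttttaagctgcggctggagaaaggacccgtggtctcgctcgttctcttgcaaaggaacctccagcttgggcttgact
Rcan1 distal start, chr16:92466120-92466419: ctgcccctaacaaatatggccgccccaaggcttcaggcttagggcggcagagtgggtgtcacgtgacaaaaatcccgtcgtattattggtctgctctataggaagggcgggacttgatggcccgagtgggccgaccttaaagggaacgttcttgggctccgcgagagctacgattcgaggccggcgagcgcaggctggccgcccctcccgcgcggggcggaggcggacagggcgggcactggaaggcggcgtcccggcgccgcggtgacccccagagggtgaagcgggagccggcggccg

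The internal window holds 3 matches on both strands together and the distal window 0. At least 1 match is present in 61.3% of 32851 promoter windows of this length, and 3 or more in 9.42%. Of the other genes, 5 matched a window. The window of Ppp3cb holds 4 matches, the windows of Nfatc2 hold 1 and 3, those of Nfatc3 hold 1 and 0, that of Nfat5 holds 2, and that of Ppp3r1 holds 0. A match is only a match of letters within these windows.

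The NFAT factors were led by Nfatc1 in both deep libraries. Nfatc1 (chromosome 18, 80606205 to 80713071, minus strand), known as the member that T cell receptor signalling induces, had 710, 2 and 312 counts, or 44.6, 11.1 and 21.3 TPM. Nfatc2 (chromosome 2, 168476410 to 168601657, minus strand), known as a form that resting T cells already hold, had 199, 5 and 93 counts, or 8.79, 19.5 and 4.46 TPM. Nfatc3 (chromosome 8, 106058840 to 106130537, plus strand), a further calcium-regulated member, had 371, 6 and 171 counts, or 14.8, 21.1 and 7.40 TPM. Nfat5 (chromosome 8, 107293470 to 107379517, plus strand) had 703, 11 and 273 counts, or 17.9, 24.7 and 7.54 TPM. Nfatc4, the remaining calcium-regulated member, had 2, 0 and 0 counts.

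Replicates 1 and 3 gave nearly the same composition. Nfatc1 made up 51.8% of the summed level of the 4 factors in replicate 1 and 52.3% in replicate 3, Nfat5 20.8% and 18.5%, Nfatc3 17.2% and 18.2%, and Nfatc2 the remainder, 10.2% in replicate 1. Replicate 2 gave 14.5% for Nfatc1, on 2 counts of 24. Its interval for Nfatc1, 1.35 to 40.1 TPM, overlaps that of replicate 3 but not that of replicate 1, which begins at 41.4 TPM.

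Nfatc1 exceeded Nfatc2 5.08-fold in replicate 1 and 4.77-fold in replicate 3. The log2 ratios were 2.34 (2.12 to 2.58) and 2.26 (1.92 to 2.61), against -0.81 (-4.21 to 1.80) in replicate 2. Nfatc1 was above Nfatc3 by log2 ratios of 1.59 (1.41 to 1.78) in replicate 1 and 1.53 (1.25 to 1.80) in replicate 3. It was above Nfat5 by a log2 ratio of 1.32 (1.17 to 1.47) in replicate 1 and by 2.83-fold in replicate 3 (log2 interval 1.26 to 1.74). Replicate 2 turned the sign of all 3 ratios of Nfatc1, and of none of the other ratios. Its intervals reached both signs, at -4.27 to 1.56 for Nfatc3 and -4.37 to 1.04 for Nfat5. For Nfatc2 and Nfat5 they lay below the intervals of both deep libraries, and for Nfatc3 they overlapped them.

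Means over the 3 libraries therefore understate what the deep libraries show for Nfatc1. The mean log2 ratio was 1.26 ± 1.80 to Nfatc2, 0.73 ± 1.44 to Nfatc3 and 0.56 ± 1.48 to Nfat5 (SD, n = 3; exact sign-flip p = 0.50 each). Without replicate 2 the means were 2.30, 1.56 and 1.41. In raw counts Nfatc1 and Nfat5 were close in replicate 1, with 710 and 703 counts. Their ratio in TPM follows the longer exonic length of Nfat5, 18378 bp against 7433 bp.

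The other factors lay closer together. Nfatc2 was below Nfatc3 in 3 of 3 libraries, with a mean log2 ratio of -0.53 ± 0.36, and below Nfat5 in 3 of 3, with -0.71 ± 0.34 (SD, n = 3; p = 0.25 for each in the exact sign-flip test, its minimum). Both differences exceeded counting error in replicates 1 and 3. For Nfatc3 over Nfat5, replicate 1 gave -0.27 (-0.46 to -0.09), replicate 2 gave -0.23 (-1.95 to 1.33) and replicate 3 gave -0.03 (-0.31 to 0.25). Their mean of -0.18 ± 0.13 turned to 0.34 with the length of the longest coding transcript, so their order was not settled.

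In all, 11 ratios were compared, and 8 had the same sign in every library that gave a value. Of the 9 between single genes, the counting interval excluded 0 for 9 in replicate 1, for 7 in replicate 3 and for 0 of 7 in replicate 2. No sign-flip test over 3 libraries can reach 0.05. Along the order of levels, Ppp3r1 and Nfatc1, Ppp3cc and Nfat5, and Nfatc3 and Ppp3cb did not differ beyond counting error in any library. Nfat5 and Nfatc3, Nfatc2 and Rcan1, and Rcan1 and Ppp3ca did so in 1 of the deep libraries each. Nfatc1 stood above Ppp3cc, and Ppp3cb above Nfatc2, beyond counting error in both. With the length of the longest coding transcript, Nfatc1 came first and Ppp3r1 second. Ppp3cc then moved from place 3 to place 6, and Nfatc2, Rcan1 and Ppp3ca stayed last.

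**Figure D2:**
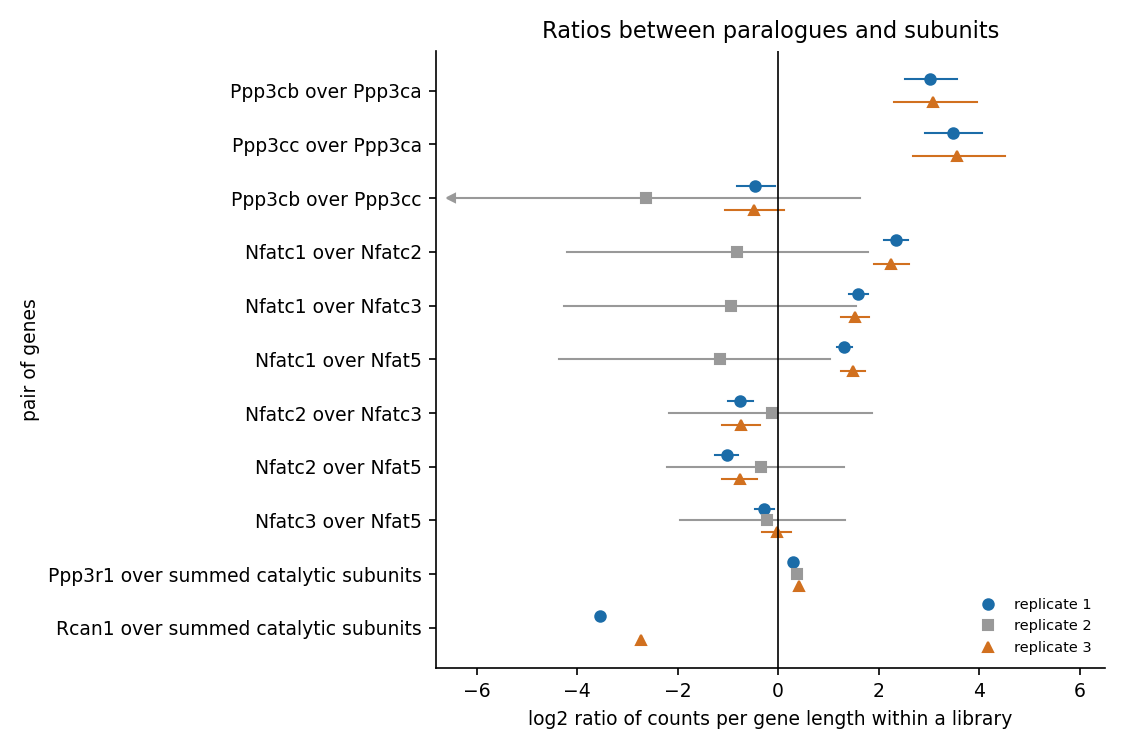
Log2 ratio of counts per exonic length within each library for 11 ratios of calcineurin and NFAT genes, with exact 95% counting intervals for ratios of single genes; an arrow marks an interval that runs beyond the axis, and missing points have 0 counts of one gene. Replicates 1 and 3 lie close together, with Nfatc1 over Nfatc2 at 2.34 and 2.26, and replicate 2 has the widest intervals.

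Between libraries, replicate 1 gave higher values than replicate 3. In CPM the ratio of replicate 1 to replicate 3 was above 0 on the log2 scale for 8 of the 9 genes, as it was for 74.7% of all 10019 genes that hold 50 counts or more. The share was 94.8% of the 5857 of these that share no exon with the other strand, and 51.4% of those overlapped for up to 50% of their length, the class of Nfatc3. Nfat5 had 148 and 77.0 CPM in replicates 1 and 3, a log2 ratio of 0.94 (95% interval 0.74 to 1.15). Nfatc1 had 150 and 88.0 CPM, a log2 ratio of 0.77 (0.57 to 0.96). Rcan1 was the exception, at 3.58 and 3.67 CPM, a log2 ratio of -0.03 (-1.16 to 1.13). The interval lay above 0 for 7 of the 9 genes, as it did for 64.6% of the 10019 genes and for 83.5% of the 5857. The median of the 5857, 0.84, was inside the interval of all 9, and 8 of the 9 values fell between the quartiles, 0.64 and 1.04. Nfatc3 is not of that class. In its own class, overlapped for up to 50%, the median was 0.07 and the quartiles were -0.72 and 0.78. The interval of Nfatc3, 0.43 to 0.97, lay above that median.

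A chi-square test of each gene's counts across the 3 libraries, adjusted over all 7406 genes that passed the filter on low counts, called 63.2% of them as varying beyond counting error. Of the 9 genes, 7 passed that filter and 2 of these were called, Nfat5 (adjusted p = 1.37e-05) and Nfatc1 (adjusted p = 0.0016). The filter required counts in every library, so Ppp3ca and Rcan1, at 0 in replicate 2, were not tested. With no filter, 30.6% of 18775 genes and 2 of the 9 were called, and Ppp3ca (adjusted p = 0.73) and Rcan1 (adjusted p = 0.77) were not.

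The 2 calls rested on the scaling. When the TMM factors were taken from genes without opposite-strand exons, 39.0% of all genes tested were called and 0 of the 7, with 0 also at an unadjusted p under 0.05. The smallest adjusted p was then 0.15, for Nfatc1. All of the 9 genes but Nfatc3 belong to the class that set these factors, which centre that class near no change. The 39.0% also covers overlapped genes, and the share called within that class was not computed. The 0 of the 7 therefore does not show that these genes varied less than others. The median log2 ratio of replicate 1 to replicate 3 was 0.26 with the first factors and -0.13 with the second. It was taken over the genes tested with 50 counts or more in replicates 1 and 3 together. The ratio of Nfat5 itself was 0.49 and 0.10, and that of Nfatc1 was 0.31 and -0.08. Of all genes called, 2690 were higher in replicate 1 and 1991 in replicate 3 with the first factors, and 326 and 2560 with the second. DESeq2 size factors called both Nfat5 and Nfatc1, beside 54.3% of all genes, with 1931 and 2089 genes in those directions. Without replicate 2, Nfat5 was called (adjusted p = 0.032) and Nfatc1 was not (adjusted p = 0.56), beside 37.9% of all genes. Without replicate 1 and without replicate 3 none was called, with 2 and 1 of the 7 at an unadjusted p under 0.05, but the share of all genes called was then only 9.47% and 3.65%. In replicate 2 Nfatc1 had 2 counts where the mean CPM of the other libraries gives 6.02, and Nfat5 had 11 where it gives 5.70. For each of the 9 genes that expected count was inside the exact interval of the count observed there.

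**Figure D3:**
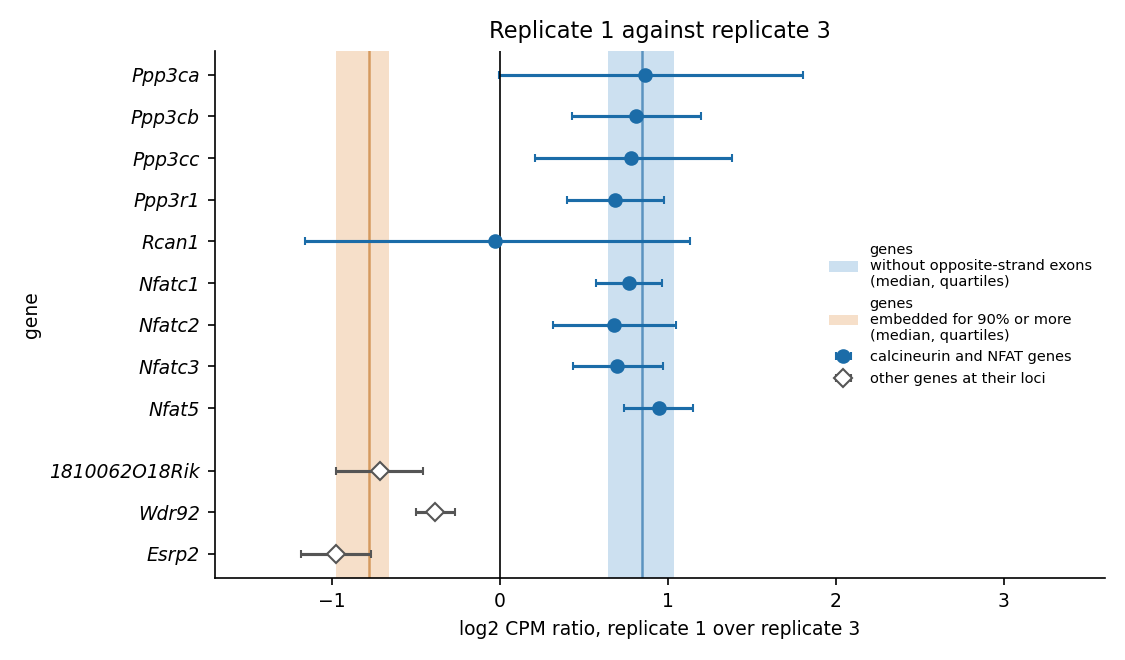
Log2 CPM ratio of replicate 1 to replicate 3 with exact 95% counting intervals for the 9 genes (filled) and for 3 other genes at their loci (open); shaded bands run between the quartiles of genes without opposite-strand exons and of genes embedded for 90% or more in exons of the other strand. Of the 9 genes, 8 lie in the first band, and Esrp2 at -0.97 and 1810062O18Rik at -0.72 lie in the second.

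Opposite-strand exons touch only 1 of the 9 genes. Nfatc3 shares 219 bp, 1.87% of its exonic length, with the end of Esrp2 on the minus strand, and the other 8 genes share none. Esrp2, a splicing regulator known from epithelial cells, had 318, 6 and 467 counts, or 34.2, 57.1 and 54.6 TPM, which put it above Nfatc3 in every library. In CPM, replicate 1 over replicate 3 gave it a log2 ratio of -0.97 (-1.18 to -0.77), opposite in sign to that of Nfatc3, 0.70 (0.43 to 0.97). The 211 genes embedded for 90% or more in exons of the other strand had a median of -0.78 (quartiles -0.98 and -0.66). Only 5.05% of the exonic length of Esrp2 is shared with Nfatc3, and 7.79% in all lies under exons of the other strand. Gene counts do not show which bases its fragments covered, and the part of Nfatc3 transcripts in them was not tested.

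At the Ppp3cb locus, 1810062O18Rik, an antisense gene, begins inside Ppp3cb on the plus strand without sharing its exons. It had 228, 2 and 280 counts, or 76.6, 59.4 and 102 TPM, and a log2 ratio of replicate 1 to replicate 3 of -0.72 (-0.98 to -0.46), against 0.81 for Ppp3cb. Of its own length, 36.7% lies under exons of the other strand. Wdr92, which shares exons with Ppp3r1 on the same strand, had 1260, 10 and 1230 counts and a ratio of -0.39 (-0.50 to -0.27), against 0.68 (0.40 to 0.98) for Ppp3r1. The annotated genes inside the introns of Ppp3ca and Nfatc3, namely Gm42822, 4930599N24Rik, Gm44327 and Gm27956, held at most 3 counts. The headers record counting on the strand of the first read, and the kit is not given in the sources used here. If the kit's first read came from the opposite strand, that setting would credit most fragments to the wrong strand. The effect of that setting on the levels was not tested.

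Transcripts of genes that act upstream of calcineurin were detected. Of 12 genes of calcium entry and transport, 9 reached 1 TPM in all 3 libraries and 11 in both deep ones, replicates 1 and 3. Of all protein-coding genes, 29.4% and 44.3% did so. These shares are the background for the lists below as well. The highest were the calcium pumps Atp2a2 (69.7 ± 29.3 TPM; SD, n = 3) and Atp2a3 (32.3 ± 15.3 TPM), which fill the endoplasmic reticulum, the store sensor Stim2 (20.0 ± 12.4 TPM) and the channel subunit Orai1 (16.1 ± 6.36 TPM). Calm2, which encodes calmodulin, stood at 269 ± 133 TPM. Calm3, which encodes the same protein, stood at 126, 17.0 and 47.9 TPM, with 1 count in replicate 2.

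Genes that restrain calcineurin or move NFAT varied widely in level. Of 7 inhibitors, anchors and immunophilins, 4 reached 1 TPM throughout and 5 in the deep libraries. Ppia, the target of ciclosporin, led at 336 ± 167 TPM, followed by Fkbp1a, the target of tacrolimus, at 79.8 ± 38.3 TPM. The inhibitor Cabin1 stood at 14.0, 13.6 and 7.56 TPM. Rcan3 had a higher mean than Cabin1 only through its 4 counts in replicate 2, and lay below it in replicates 1 and 3. Of 13 genes of NFAT kinases, transport and retention, 9 reached 1 TPM throughout and 10 in the deep libraries. Homer3, a scaffold that competes with calcineurin for NFAT, stood at 233 ± 93.8 TPM, the import receptor Kpnb1 at 170 ± 70.2 TPM, the kinase Gsk3a at 120 ± 8.98 TPM and the export receptor Xpo1 at 83.6, 69.0 and 40.3 TPM. Of the exonic length of Homer3 and Gsk3a, 25.4% and 28.3% lies under exons of the other strand. The noncoding RNA Nron, which retains NFAT in the cytosol, had 0, 0 and 1 counts. Nfatc2ip, which binds NFAT, had 77, 0 and 24 counts, with an overlap of 13.4%.

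Known targets of NFAT had a higher median level than the 9 genes in each library. Of 22 target genes of activated T cells, 17 reached 1 TPM throughout and 20 in the deep libraries, with medians of 96.1, 66.7 and 39.5 TPM in replicates 1, 2 and 3. The growth factor Il2 led at 681 ± 286 TPM, followed by its receptor chain Il2ra (162 ± 67.9 TPM), Myc, which drives cell growth (160 ± 65.0 TPM), and the cytokine Tnf (147 ± 55.4 TPM). The ubiquitin ligase gene Rnf128 had no count, and the inhibitory receptor Havcr2 had 1, 0 and 1. Of 10 osmotic targets of Nfat5, 6 reached 1 TPM throughout. The highest were the cytokine Ltb (53.8 ± 28.0 TPM), the taurine transporter Slc6a6 (46.4 ± 16.6 TPM), the amino acid transporter Slc38a2 (38.4 ± 16.8 TPM) and the aldose reductase Akr1b3 (16.5 ± 9.10 TPM). Aqp1 and S100a4 had no count, with 51.7% of the exonic length of S100a4 shared with a gene of its own strand, and the betaine transporter Slc6a12 had 2, 0 and 0.

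The chi-square test called 4 of 9 calcium genes tested, 3 of 4 inhibitors and immunophilins, 7 of 9 kinase and transport genes, 15 of 17 NFAT targets and 5 of 6 Nfat5 targets, beside 63.2% of all genes. With TMM factors from genes without opposite-strand exons the numbers were 0, 2, 3, 2 and 1, beside 39.0%. The 2 NFAT targets still called were Lag3 (44.5, 157 and 12.7 TPM, with 8 counts in replicate 2) and Il4 (9.52, 67.3 and 9.92 TPM, with 2 counts).

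**Figure D4:**
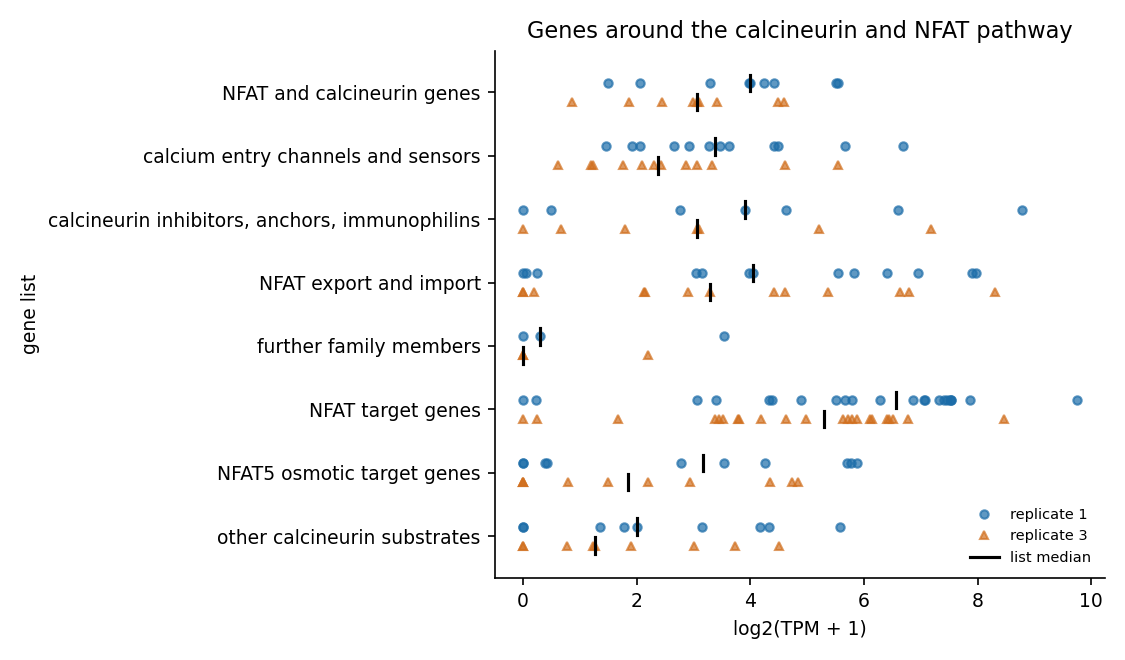
Level of each gene as log2(TPM + 1) in replicate 1 and replicate 3 for the 9 calcineurin and NFAT genes and 7 lists of genes around them, with a bar at each list's median. The NFAT targets had a median of 96.1 TPM in replicate 1, against 14.9 TPM for the 9 genes.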

How the data were processed

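The authors deposited raw fragment counts for each gene as whole numbers. featureCounts 1.4.6-p4 produced them on GENCODE M13 exons, per the file headers, keeping pairs whose ends both mapped. Strand setting 1 was used, without the options that count fragments of several genes or several places. The labels name mm10. No kit or trimming step is named. The deposited tables also give each gene's exonic length, another value used here to compute TPM. Levels therefore use all exons of a gene combined, and transcripts of 1 gene cannot be separated.

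Symbols matched for 50376 of 50600 genes. Transcript lengths and biotypes came from GENCODE M21 and promoters from RefSeq (GRCm38.p6). Opposite-strand exons overlap 8189 genes. Variation across libraries was tested by chi-square (2 degrees of freedom) on totals scaled by TMM factors from edgeR 4.0.16, over genes kept by filterByExpr, with Benjamini-Hochberg adjustment over all genes tested at 0.05; expected counts in replicate 2 were often under 5, where this is approximate. With 1 group no test between groups was possible. Counting intervals for ratios are exact Clopper-Pearson, those for levels exact Poisson, both at 95%. Ratios across libraries were tested by an exact sign-flip test, leaving out libraries with a count of 0. DESeq2 1.42.0 gave alternative size factors. R 4.3.3 and Python 3.11.15 were used.

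The 9 genes and the gene lists were chosen with earlier results of these data known. Named besides the 9 genes are all genes that overlap them, all further family members and the 4 highest of each list by mean TPM. Results that need some other genes are not reported here. The markers that are named were at 0 or belong to other cells. Xist, Ddx3y, Nron, Rnf128, Havcr2, Aqp1, S100a4, Slc6a12, Lag3 and Il4 were chosen after their values were seen. No column of another series was used.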

Additional observations from a re-analysis of the deposited data

How the results depend on the processing

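With only 1 group, no paired analysis was possible because no groups share replicate numbers. Of the 11 ratios, 8 kept their direction under every alternative tried: raw counts, counts summed over libraries, 0.5 added to both counts, each replicate left out, and, chosen after seeing the data, the length of the longest coding transcript. The exceptions were Ppp3cb over Ppp3cc (mean log2 0.44 in raw counts), Nfatc1 over Nfat5 (-0.75 in raw counts) and Nfatc3 over Nfat5 (0.34 with the longest coding transcript). In raw counts without replicate 2, chosen after seeing the data, Ppp3cb over Ppp3cc stood at 1.16 and Nfatc1 over Nfat5 at 0.10, so the change of sign of Nfatc1 over Nfat5 rested on the 2 against 11 counts of replicate 2. The 4681 genes called as varying became 2886 with TMM factors from genes without opposite-strand exons, and 271 to 4167 with 1 replicate left out. The 2 pathway genes called became 0 with those factors and 0 to 1 with 1 replicate left out. With those factors and without replicate 2 together, also chosen after seeing the data, 0 of the 9 were called. The share of all genes tested was 34.2%, overlapped genes included. TPM scaled over genes without opposite-strand exons was 3.31 to 3.84 times higher for each of the 9 genes, which leaves their order within a library as it was. The number of genes at 1 TPM in every library ranged from 6 to 8 under other floors, FPKM and each replicate left out. In replicate 2, 3 counts were worth between 6.74 TPM for Nfat5 and 63.6 TPM for Ppp3cc, and no ratio between single genes exceeded counting error there.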

Other observations

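Other substrates of calcineurin ranged widely in level. Of 9 such genes, 3 reached 1 TPM throughout and 6 in the deep libraries, replicates 1 and 3. Of all protein-coding genes, 29.4% and 44.3% did so. Dnm1l, a mitochondrial fission enzyme, led at 46.7, 111 and 21.6 TPM, with 11 counts in replicate 2. Mef2d, a transcription factor that calcineurin activates, stood at 19.0, 0 and 12.2 TPM, the coactivator Crtc2 at 17.0, 0 and 7.06 TPM and the transcription factor Foxo1 at 7.87, 4.76 and 2.75 TPM. Mef2c and Ksr2 had no count in any library. The chi-square test called 2 of the 3 genes tested, beside 63.2% of all genes. With TMM factors from genes without opposite-strand exons it called 1, beside 39.0%.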
